A study of Sus scrofa with 9 samples.

Results

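The 9 genes described here encode the amyloid precursor protein family (APP, APLP1 and APLP2) and the proteins that cut or sort it: the beta-secretases BACE1 and BACE2, the presenilin PSEN2 of the gamma-secretase, the alpha-secretases ADAM10 and ADAM17, and the sorting receptor SORL1. They were chosen by symbol, and all 9 were found among the 19535 gene rows of the count table. All 9 also passed the filter on low counts, as did 13662 genes in all. RNA was sequenced from wild type porcine valvular interstitial cells (PVICs), the fibroblast-like cells of the aortic valve leaflet, taken from pigs aged 4 to 5 months. The control group was kept in DMEM. The OIM group was kept in an osteogenic medium, used in the study to induce calcium deposition, that contained ascorbic acid at 50 µg/mL, insulin, and sodium dihydrogen phosphate at 2 mmol/L. The bFGF group had the same osteogenic medium with 50 ng/mL basic fibroblast growth factor. Each group had 3 libraries, and the labels give 3 days of treatment, whereas the study's methods give a shorter time to RNA extraction. The labels do not say whether the libraries of a group came from separate animals or cultures, so the p-values measure the spread between these libraries.

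APP and its relatives APLP1 and APLP2 are membrane proteins with a large outer domain and a short cytoplasmic tail. An alpha-secretase, chiefly ADAM10 and also ADAM17, or a beta-secretase, BACE1, cuts off the outer domain. The gamma-secretase then cuts the stub within the membrane, and the enzyme that made the first cut decides whether the amyloid beta peptide is released from APP. The family is best known from the brain, where APLP1 is largely found, whereas APP and APLP2 are made in most tissues, fibroblasts included.

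The relatives can be recognised by short shared stretches of coding sequence, which were read from the RefSeq coding exons of Sscrofa11.1. Each window below has 30 bases in the direction of transcription, and the capitals mark the codons of the motif named. In the precursor family these are the codons of the NPxY motif in the cytoplasmic tail, which binds the adaptor proteins described further on.
APP: ggctatgaaAACCCAACTTACaagttcttt
APLP1: ggctacgagAACCCCACCTACcgcttcctg
APLP2: ggttatgaaAACCCAACCTACaaatacctg
These windows lie at chr13:189435978-189436007 (minus strand), chr6:45294981-45295010 (plus strand) and chr9:56870487-56870516 (plus strand). APP and APLP2 had 24 of 30 bases in common, APLP1 and APLP2 had 22, and APP and APLP1 had 21. The longest annotated protein had 770 residues for APP, 770 for APLP2 and 647 for APLP1.

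The secretases are shown at the codons of their catalytic motifs. BACE1 and BACE2 are aspartyl proteases with a DTGS active site, and ADAM10 and ADAM17 are metalloproteases with a zinc-binding HExxH motif. PSEN2 carries the GxGD motif of the presenilins.
BACE1: atcctggtgGACACAGGCAGCagtaacttt
BACE2: atactcgttGACACTGGAAGCagcaacttc
ADAM10: tttgctCATGAAGTTGGACATaactttgga
ADAM17: acaactCATGAATTGGGGCACaattttgga
PSEN2: gtgaagctgGGCCTCGGAGACttcatcttc
The positions are chr9:44650690-44650719 (minus strand) for BACE1, chr13:204638618-204638647 (plus strand) for BACE2, chr1:113385052-113385081 (plus strand) for ADAM10, chr3:126835045-126835074 (plus strand) for ADAM17 and chr10:14559933-14559962 (plus strand) for PSEN2. The BACE pair shared 23 of 30 bases and the ADAM pair shared 21. Within the motif codons the BACE pair shared 10 of 12 bases and the ADAM pair 11 of 15.

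Library depth ranged from 46773376 to 67371523 counts on genes, and every bFGF library had fewer counts than every other library. Levels are given as CPM, the counts of a gene relative to the library total, scaled with TMM factors, which were 1.10 to 1.11 for bFGF and 0.937 to 0.967 for the others. If only library totals were used for scaling, the all-gene median of the log2 fold change shifted upward by 0.22 in each of the bFGF comparisons. Directions are therefore given relative to the TMM scale, and where totals alone turn the direction of a named gene this is stated. All 10 interstitial cell markers were detected, with a summed level of 61454 to 70268 CPM in the control and OIM libraries and 37598 to 37952 CPM in the bFGF libraries. Its members did not move as 1: of the 10, COL1A1, COL1A2, COL3A1 and DCN were called lower in bFGF against OIM, VIM and S100A4 were called higher, and 4 were not called. Myofibroblast markers (6 genes) summed to 10132 to 13684 CPM without bFGF and 1687 to 1881 CPM with it. The 8 endothelial markers summed to 20.8 to 24.1 CPM without bFGF and 36.3 to 38.8 CPM with it. Leukocyte markers summed to 14.5 to 18.1 CPM without bFGF and 9.03 to 9.84 CPM with it, and CD3E was at 0 in every library. The 12 neuron and glia markers together reached at most 1.77 CPM. The part of these shifts in the results below was not tested, and in bulk RNA fewer cells of a type and less RNA per cell cannot be told apart.

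Across genes, levels were compared as CPM per kb of annotated exon. APP was the most abundant of the 9 in every group, with 391 ± 4.58 CPM per kb in control, 347 ± 6.82 in OIM and 235 ± 4.59 in bFGF (SD, n = 3). That placed APP at rank 110 to 116 of 13617 genes in the control libraries, 128 to 130 in OIM and 167 to 170 in bFGF. APLP2 followed with 108 ± 3.40, 101 ± 1.77 and 99.7 ± 0.766 CPM per kb in the same order (SD, n = 3). BACE2, ADAM10 and ADAM17 lay together, between 21.3 and 37.8 CPM per kb in all libraries. BACE1 (4.66 to 6.46), PSEN2 (4.20 to 5.32) and APLP1 (1.23 to 2.93) were lower, and SORL1 was lowest with at most 0.0889 CPM per kb. BACE2 thus exceeded BACE1 in every library, with group means of 33.1 against 4.72 CPM per kb in bFGF.

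**Figure D1:**
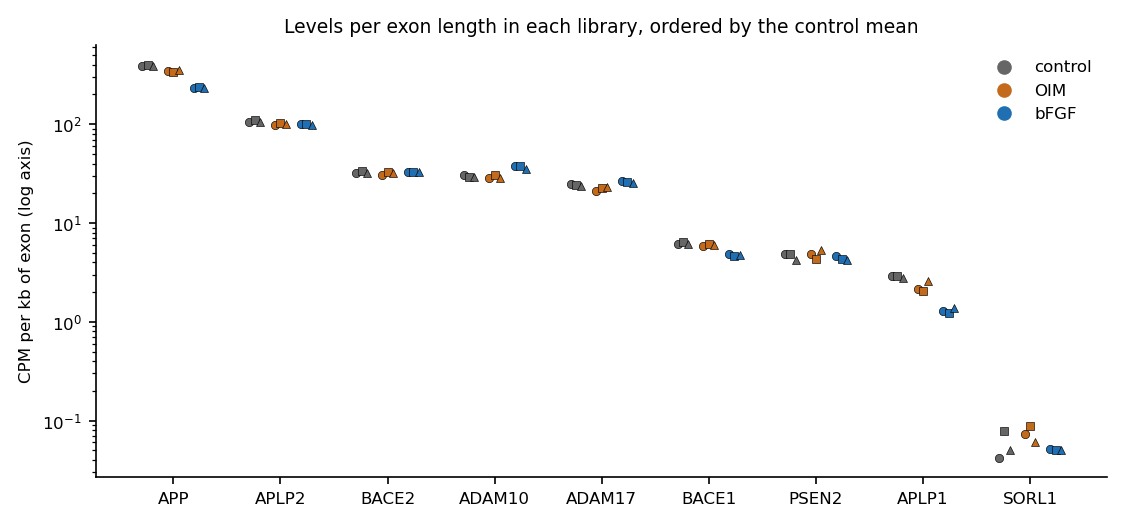
CPM per kb of exon on a log axis for each gene, with 1 point per library, coloured by group and shaped by replicate. APP lies above 231 CPM per kb in every library and SORL1 at 0.0889 or less, and ADAM10 stands above BACE2 in the bFGF libraries but below it in the others.

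The order of the levels was the same in control and OIM: APP, APLP2, BACE2, ADAM10, ADAM17, BACE1, PSEN2, APLP1 and SORL1, with no overlap between the libraries of neighbouring genes. In bFGF, ADAM10 (37.0 ± 1.29 CPM per kb) stood above BACE2 (33.1 ± 0.181; SD, n = 3), and the ranges of BACE1 and PSEN2 overlapped. The ADAM10 model has 1 transcript whose exon length of 2247 bases is all coding, so its per-length level cannot be set precisely against genes whose untranslated ends are annotated.

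APP, the gene for the amyloid beta precursor protein (chromosome 13, 189434854 to 189716120, minus strand), was lower with bFGF. The control libraries held 1413, 1438 and 1407 CPM, the OIM libraries 1261, 1234 and 1284 CPM, and the bFGF libraries 845, 871 and 840 CPM. The 3 groups did not overlap: control was highest, OIM intermediate and bFGF lowest. APP fell by 0.56 on the log2 scale in bFGF against OIM (SE 0.031, adjusted p = 3.01e-12 in the edgeR quasi-likelihood test with Benjamini-Hochberg adjustment), which is 1.48-fold lower. Against control it fell by 0.74 (SE 0.031, adjusted p = 4.16e-14, edgeR), a 1.67-fold difference. In OIM against control the difference was -0.17 (95% interval -0.24 to -0.11, adjusted p = 0.000786 in edgeR), which passed the adjusted p but not the fold limit of 0.5. With library totals alone the bFGF against OIM difference was -0.34, which is under the fold limit. These values rest on 43645 to 87162 counts per library.

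APLP1 (chromosome 6, 45285698 to 45295355, plus strand) had the largest fold change of the 9 genes in both bFGF comparisons, on a low level. The libraries held 7.10, 7.13 and 6.75 CPM in control, 5.24, 4.97 and 6.34 CPM in OIM, and 3.09, 3.00 and 3.35 CPM in bFGF, from 156 to 432 counts. All OIM libraries lay below all control libraries, and all bFGF libraries lay below both. APLP1 fell by 0.81 in bFGF against OIM (SE 0.13, adjusted p = 2.02e-05, edgeR) and by 1.15 against control (SE 0.13, adjusted p = 1.60e-07, edgeR). The OIM against control difference was -0.34 (95% interval -0.60 to -0.08) and did not pass (adjusted p = 0.0778, edgeR). Both calls held with library totals alone. The summed neuron and glia markers reached 1.38 CPM at most in the control and OIM libraries and 1.77 CPM in the bFGF libraries.

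APLP2 (chromosome 9, 56798781 to 56871849, plus strand), the ubiquitous relative of APP, stayed within a narrow range. It had 399, 419 and 396 CPM in control, 373, 386 and 380 CPM in OIM, and 374, 378 and 373 CPM in bFGF. The OIM and bFGF libraries overlapped, and both groups lay below control. In bFGF against OIM the log2 fold change was -0.02 with a 95% interval of -0.09 to 0.05 (adjusted p = 0.639, edgeR), so a change of the size seen in APP lies outside the interval. Library totals alone turned this direction, to 0.20. In bFGF against control the value was -0.11 (adjusted p = 0.00667, edgeR), also turned to 0.11 by totals alone, and in OIM against control it was -0.09 (adjusted p = 0.0802, edgeR).

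**Figure D2:**
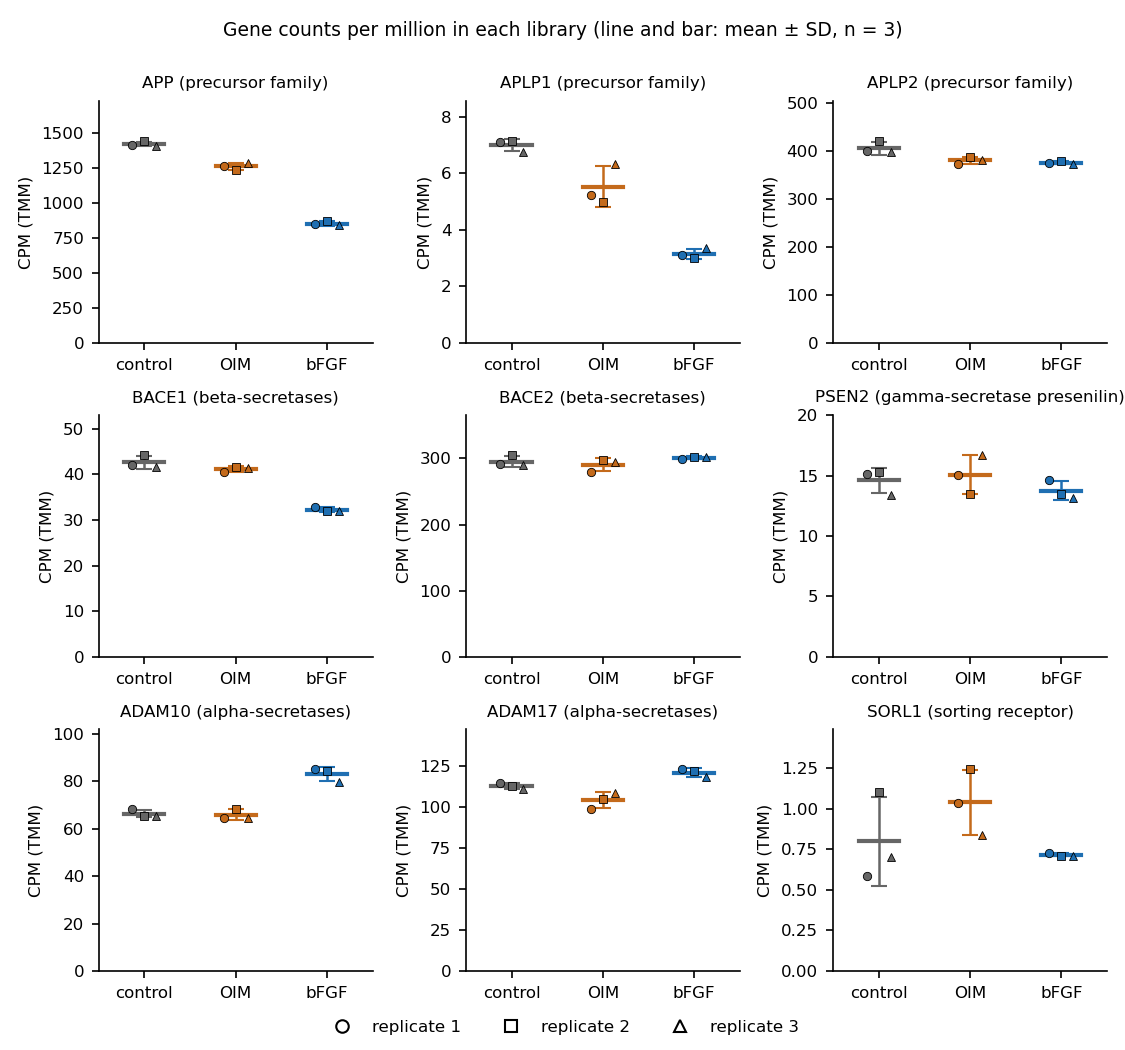
TMM-scaled CPM of each of the 9 genes in each library, with a linear axis from 0, points shaped by replicate, and a line and bar for the mean ± SD of 3 libraries. APP falls from 1407 to 1438 CPM in control to 840 to 871 CPM in bFGF, APLP2 stays between 373 and 419 CPM, and ADAM10 reaches 79.8 to 85.0 CPM in bFGF.

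Because a share within a library does not depend on how libraries are scaled, APP was also taken as a share of the summed per-length level of the 3 precursor genes. The share was 78.1%, 77.6% and 78.2% in control, 77.4%, 76.5% and 77.3% in OIM, and 69.8%, 70.2% and 69.7% in bFGF. Every bFGF library was below every other library. The mean difference of bFGF against OIM was -7.15 percentage points, and that of bFGF against control was -8.05. Both gave p = 0.1 in a two-sided exact permutation test, the smallest p that 3 against 3 libraries allow. OIM against control differed by -0.894 points, with no overlap and the same exact permutation p of 0.1.

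The alpha-secretase genes were higher with bFGF by less than the fold limit. ADAM10 (chromosome 1, 113289480 to 113407940, plus strand), the main constitutive alpha-secretase, had 68.2, 65.5 and 65.3 CPM in control, 64.5, 68.5 and 64.6 CPM in OIM, and 85.0, 84.5 and 79.8 CPM in bFGF. The control and OIM libraries were mixed, and every bFGF library lay above them. Its log2 fold change was 0.34 in bFGF against OIM (SE 0.044, adjusted p = 1.22e-06, edgeR) and 0.32 in bFGF against control (SE 0.044, adjusted p = 1.75e-06, edgeR), or 26.2% and 25.2% higher. With library totals alone the values were 0.56 and 0.55, which pass the limit. OIM against control gave -0.01 with a 95% interval of -0.10 to 0.08 (adjusted p = 0.915, edgeR).

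ADAM17 (chromosome 3, 126795513 to 126853995, plus strand), the enzyme that also sheds TNF and EGF receptor ligands, had 115, 113 and 111 CPM in control, 98.9, 105 and 109 CPM in OIM, and 123, 122 and 118 CPM in bFGF. OIM was lowest, control intermediate and bFGF highest, without overlap. The log2 fold change was 0.22 in bFGF against OIM (SE 0.041, adjusted p = 0.00011, edgeR), 0.10 in bFGF against control (adjusted p = 0.0356, edgeR) and -0.12 in OIM against control (adjusted p = 0.0704, edgeR). Library totals alone gave 0.44 and 0.32 for the bFGF comparisons. The end of ADAM17 overlaps exons of IAH1 on the other strand, and whether counting used strand is not given in the sources used here. IAH1 had 35.1 ± 1.51 CPM in OIM and 40.3 ± 2.48 in bFGF (SD, n = 3), 0.20 apart on the log2 scale, and the part of shared reads in the ADAM17 value was not tested.

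The beta-secretase genes differed from each other. BACE1 (chromosome 9, 44640389 to 44665863, minus strand), which makes the first cut toward amyloid beta, had 42.0, 44.2 and 41.7 CPM in control, 40.5, 41.5 and 41.4 CPM in OIM, and 33.0, 31.9 and 32.1 CPM in bFGF. All bFGF libraries were the lowest. Its log2 fold change was -0.35 in bFGF against OIM (SE 0.051, adjusted p = 4.67e-06, edgeR) and -0.40 in bFGF against control (SE 0.051, adjusted p = 7.30e-07, edgeR), under the fold limit in both. With library totals alone these were -0.13 and -0.17. OIM against control gave -0.05 with a 95% interval of -0.16 to 0.05 (adjusted p = 0.579, edgeR).

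BACE2 (chromosome 13, 204600740 to 204720215, plus strand), the paralog that mainly cuts other substrates and can cut APP within the amyloid beta sequence, had 291, 305 and 289 CPM in control, 280, 298 and 294 CPM in OIM, and 299, 302 and 302 CPM in bFGF. The bFGF libraries lay just above all OIM libraries and within the range of control. The log2 fold change was 0.05 in bFGF against OIM (95% interval -0.02 to 0.13, adjusted p = 0.202, edgeR) and 0.03 in bFGF against control (95% interval -0.04 to 0.11). Under library totals alone the first was 0.27. With each library left out it ranged from 0.025 to 0.089, and without OIM replicate 2 it passed the adjusted p (0.0326, edgeR).

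**Figure D3:**
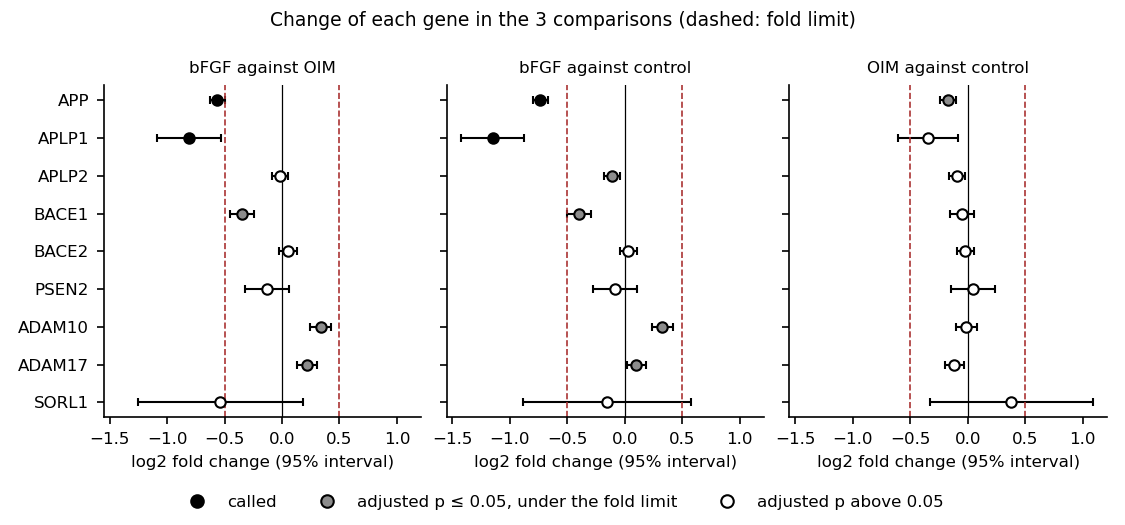
Log2 fold change of each gene with its 95% interval from edgeR in the 3 comparisons; black points passed the adjusted p and the fold limit (dashed lines at 0.5), grey points only the adjusted p. APP and APLP1 are black in both bFGF comparisons, BACE1, ADAM10 and ADAM17 are grey in both, and SORL1 has the widest interval.

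The enzymes were also set against each other within libraries, as the ratio of summed per-length levels of ADAM10 and ADAM17 to those of BACE1 and BACE2. The ratio was 1.44, 1.34 and 1.40 in control, 1.36, 1.37 and 1.36 in OIM, and 1.71, 1.69 and 1.61 in bFGF. Every bFGF library exceeded every other library, whereas OIM lay within the range of control. On the log2 scale bFGF exceeded OIM by 0.29 and control by 0.26, each with p = 0.1 in the two-sided exact permutation test, again the smallest p possible. OIM and control differed by -0.03 (exact permutation p = 0.4). The ratio is one of RNA levels and not of enzyme activity, and BACE2 made up most of its denominator. Its size rests on the division by exon length, and the ADAM10 length is all coding. Without that division the order of the pairs turned: BACE2 alone had 290 CPM in OIM and 301 CPM in bFGF. ADAM10 had 65.8 and 83.1 CPM and ADAM17 had 104 and 121 CPM, in the same order.

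**Figure D4:**
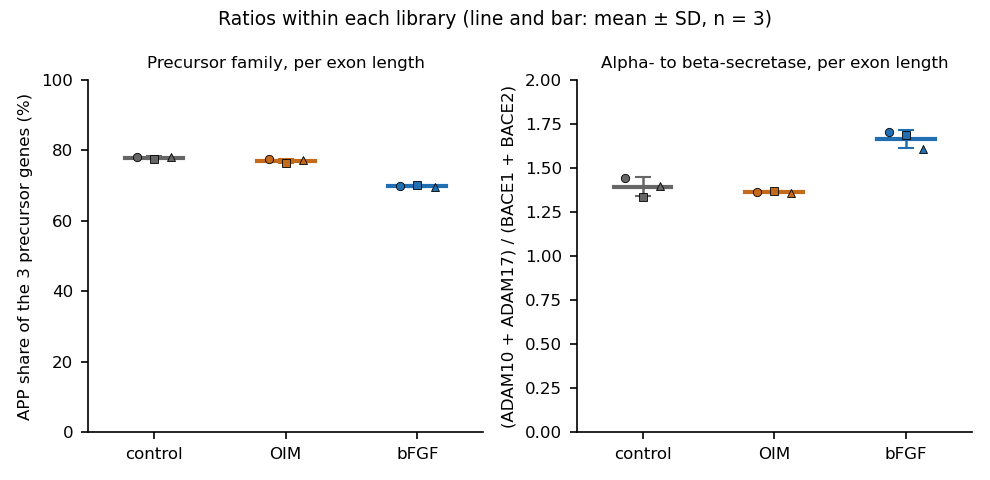
Left, APP as a percentage of the summed per-length level of APP, APLP1 and APLP2; right, the ratio of alpha- to beta-secretase genes, with points for libraries and a line and bar for the mean ± SD of 3. The bFGF libraries lie at 69.7% to 70.2% against 76.5% to 78.2% on the left, and at 1.61 to 1.71 against 1.34 to 1.44 on the right.

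PSEN2 (chromosome 10, 14532556 to 14561862, plus strand) encodes presenilin 2, a catalytic subunit of the gamma-secretase found mainly in late endosomes and lysosomes. It had 15.1, 15.3 and 13.4 CPM in control, 15.1, 13.5 and 16.7 CPM in OIM, and 14.7, 13.5 and 13.2 CPM in bFGF, so the groups overlapped. The log2 fold change in bFGF against OIM was -0.13 (95% interval -0.32 to 0.06, adjusted p = 0.205, edgeR), and its sign turned with library totals alone. With each library left out the PSEN2 value ranged from -0.19 to -0.054. Among the other subunit genes of the complex, NCSTN, which encodes nicastrin, APH1A, APH1B and PSENEN were not called in any comparison. Their values in bFGF against OIM were 0.08, -0.02, 0.17 and -0.09 on the log2 scale, and totals alone turned APH1A to 0.20 and PSENEN to 0.13. Of these genes APH1B passed the adjusted p alone (0.0318, edgeR).

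SORL1 (chromosome 9, 48435350 to 48653670, plus strand), the VPS10 receptor that returns APP from endosomes to the Golgi, was barely detected. It had 0.587, 1.11 and 0.703 CPM in control, 1.03, 1.24 and 0.840 CPM in OIM, and 0.727, 0.711 and 0.712 CPM in bFGF, from 32 to 81 counts per library. The bFGF libraries were below all OIM libraries and inside the control range. In bFGF against OIM the difference of -0.54 on the log2 scale had a 95% interval of -1.26 to 0.18 (adjusted p = 0.176, edgeR), so the interval holds both 0 and a fall larger than that of APP, and no difference was detectable at this depth. In OIM against control the interval ran from -0.33 to 1.09, and in bFGF against control from -0.89 to 0.57.

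Counted together, 2 of the 9 genes were called lower in bFGF against OIM and 0 higher, where 18.4% of all genes tested were called lower and 17.7% higher. The adjusted p alone passed for 5 of 9 against 67.4% of all genes, with 3 lower (33.5%) and 2 higher (33.8%), and an unadjusted p of at most 0.05 was met by 69.8% of all genes. The groups did not overlap for 7 of 9 against 72.1% of all genes, with 4 lower (35.8%) and 3 higher (36.3%). The share of the 9 genes past each limit was thus near or below that of all genes.

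In bFGF against control 2 genes were called lower and 0 higher, where 20.0% and 18.9% of all genes were. The adjusted p alone passed for 6 of 9 against 70.2%, with 4 lower (35.7%) and 2 higher (34.5%), and the unadjusted p for 6 of 9 against 72.3%. The groups did not overlap for 6 of 9 against 73.7%, with 4 lower (37.3%) and 2 higher (36.4%).

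In OIM against control 0 of 9 were called by edgeR and 0 by DESeq2, where edgeR called 2.35% of all genes, 1.49% higher and 0.864% lower. APP passed the adjusted p alone, 1 of 9 against 13.6% of all genes, of which 5.87% were lower and 7.69% higher. An unadjusted p of at most 0.05 was met by 4 of 9 against 26.2%. The groups did not overlap for 5 of 9 (APP, APLP1, APLP2, BACE1 and ADAM17) against 28.8% of all genes, and all 5 were lower in OIM, as were 14.2% of all genes, with 14.5% higher. The median log2 fold change of the 9 was -0.13, -0.11 and -0.05 in bFGF against OIM, bFGF against control and OIM against control, and that of all genes tested was -0.003, -0.02 and -0.002. The comparisons share libraries, so their values are not independent of each other.

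Other genes of the same pathway were taken from 6 lists of 70 genes, of which 68 were tested. In bFGF against OIM, 6 were called higher and 15 lower, or 30.9%, where 36.2% of all genes were called. With library totals alone 10 were called higher and 9 lower, and 15 of the 21 genes were shared. In bFGF against control 7 were called higher and 14 lower, or 30.9% against 39.0% of all genes, and 12 and 9 with totals alone. In OIM against control 4 were called higher and 1 lower, or 7.35% against 2.35% of all genes.

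Of the 12 tested adaptor genes that bind the tail of APP, 3 were called lower and 0 higher in bFGF against OIM, where 18.4% and 17.7% of all genes were. A further 4 passed the adjusted p alone downward and 1 upward, and the median was -0.37. DAB2, an endocytic adaptor that recognises NPxY motifs, had 325 ± 3.39 CPM in control, 250 ± 8.86 in OIM and 72.6 ± 0.806 in bFGF (SD, n = 3). It fell by 1.79 against OIM (adjusted p = 1.35e-18, edgeR). NUMBL, a relative of the endocytic adaptor NUMB, fell by 0.78 (adjusted p = 5.47e-10, edgeR). APBB1 (Fe65), which carries the APP tail fragment to the nucleus, fell by 0.50 (adjusted p = 1.73e-06, edgeR) and was not called without OIM replicate 1, without bFGF replicate 2 or with totals alone. Its relative APBB2 had 51.3 ± 1.48 CPM in control, 73.1 ± 0.471 in OIM and 102 ± 0.409 in bFGF (SD, n = 3), and its 0.48 in bFGF against OIM was under the limit. APBB2 rose by 0.51 in OIM against control (adjusted p = 5.09e-08, edgeR) and by 0.99 in bFGF against control (adjusted p = 2.02e-14, edgeR). The former was not called without control replicate 1.

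Among 11 tested genes of the VPS10 receptors, the retromer and the GGA adaptors, 2 were called lower and 0 higher in bFGF against OIM (18.4% and 17.7% of all genes), with a median of -0.004. SORT1, which encodes sortilin, had 375 ± 12.8 CPM in control, 364 ± 16.6 in OIM and 187 ± 11.6 in bFGF (SD, n = 3), a fall by 0.96 against OIM (adjusted p = 2.54e-13, edgeR). The other call was SORCS2, at no more than 34 counts in any library, which is named outside the rule. The 4 retromer genes of the list were not called and lay on both sides of 0. VPS35, VPS26A, VPS26B and VPS29 differed by -0.23, -0.38, 0.17 and 0.09 on the log2 scale, and by -0.009, -0.16, 0.39 and 0.31 with totals alone. These genes, which were not called, are named outside the rule, after their values were seen.

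The genes that mature, escort or inhibit the ADAM enzymes went both ways. Of 17 tested, 2 were called higher and 2 lower in bFGF against OIM (17.7% and 18.4% of all genes), with a median of 0.15. TSPAN5, a tetraspanin that takes ADAM10 out of the endoplasmic reticulum, rose from 1.29 ± 0.267 CPM in OIM to 8.33 ± 1.97 CPM in bFGF (SD, n = 3), 2.68 on the log2 scale (SE 0.24, adjusted p = 5.73e-09, edgeR). FURIN, a proprotein convertase that removes the ADAM prodomain, rose by 0.84, from 145 ± 5.80 to 260 ± 3.28 CPM (SD, n = 3; adjusted p = 2.07e-12, edgeR). PCSK5, another convertase, fell by 0.71 (adjusted p = 4.33e-12, edgeR), though its -0.49 under library totals alone missed the limit. TSPAN10 fell by 0.55 (adjusted p = 0.0034, edgeR) and was not called without OIM replicate 2, without bFGF replicate 1 or with totals alone (-0.33). TSPAN15, another ADAM10 partner, rose by 0.88 in OIM against control, from 8.46 ± 0.515 to 15.6 ± 1.47 CPM (SD, n = 3; adjusted p = 1.68e-06, edgeR). The iRhom genes RHBDF1 and RHBDF2, which escort ADAM17, had log2 fold changes of 0.25 and 0.15 in bFGF against OIM. RHBDF2 did not pass the adjusted p (0.0563, edgeR) and its groups overlapped. TIMP3, the inhibitor of ADAM17, had 0.27, whereas TIMP2 had -0.26. All of these were under the limit and named outside the rule. By the adjusted p alone, 7 of the 17 passed higher and 6 lower (33.8% and 33.5% of all genes).

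Of 9 genes for enzymes that can degrade amyloid beta, 3 were called lower and 0 higher in bFGF against OIM (18.4% and 17.7% of all genes). CTSD, the lysosomal protease cathepsin D, fell by 0.81 (adjusted p = 1.95e-12, edgeR), MMP9 by 0.84 (adjusted p = 3.35e-06, edgeR) and MMP2 by 0.60 (adjusted p = 1.72e-10, edgeR), and MMP2 was not called with totals alone. By the adjusted p alone, 5 of the 9 passed lower and 1 higher (33.5% and 33.8% of all genes). The gene that passed higher was CTSB, which rose by 0.19 (adjusted p = 9.83e-05, edgeR), or by 0.41 with totals alone. IDE and ECE1 each had a log2 fold change of -0.27, or -0.05 with totals alone. MME, which encodes neprilysin, reached at most 19 counts. CTSB, IDE, ECE1 and MME were also chosen outside the rule.

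Of 14 tested genes for receptors and binding partners of APP and amyloid beta, 4 were called higher and 5 lower in bFGF against OIM, where 17.7% and 18.4% of all genes were. The median was -0.36. CLU, the gene for the secreted chaperone clusterin, had 1379 ± 46.3 CPM in control, 1093 ± 63.1 in OIM and 377 ± 18.7 in bFGF (SD, n = 3), a fall by 1.54 against OIM (adjusted p = 1.44e-16, edgeR). LRP1, a large endocytic receptor with NPxY motifs of its own, fell by 0.90, from 5039.9 ± 167 to 2692 ± 78.9 CPM (SD, n = 3; adjusted p = 9.11e-14, edgeR). APOE, the lipid carrier, fell by 1.01 on a low level, from 3.99 ± 0.681 to 1.98 ± 0.231 CPM (SD, n = 3; adjusted p = 4.19e-05, edgeR). LRP8 rose by 1.47 (adjusted p = 2.76e-14, edgeR) and the death receptor gene TNFRSF21 by 0.89 (adjusted p = 8.60e-09, edgeR). LRP10 and RTN4 fell by 0.56 and 0.53 (adjusted p = 2.47e-09 and 1.17e-11, edgeR) and were not called with totals alone. A further call upward, ITM2A, had at most 21 counts in a library, kept its call in 3 of 9 leave-one-out fits and is named outside the rule. TNFRSF21 and APOE were also called in OIM against control, at 0.52 and -0.64 on the log2 scale. The APOE call was lost without control replicate 1, and that of TNFRSF21 without control replicate 3, OIM replicate 1 or OIM replicate 3.

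**Figure D5:**
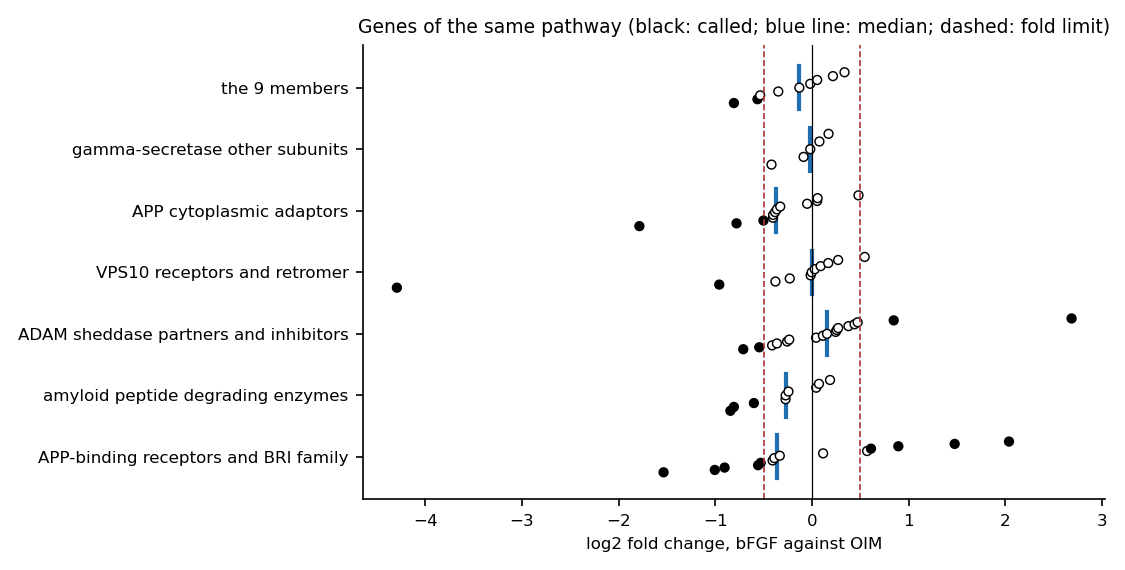
Log2 fold change in bFGF against OIM for the 9 genes and the 6 pathway lists, with 1 point per gene, black where called, a blue line at the list median and dashed lines at the fold limit of 0.5. The median lies at -0.37 for the tail adaptors and at 0.15 for the ADAM partners, and calls in both directions appear in the ADAM partners and the APP-binding receptors.

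The genes whose profile over the 9 libraries lay closest to that of APP were ranked by the distance between centred log2 CPM values. The nearest was ELF1, an ETS family transcription factor, with a distance of 0.086. SCARB2, a lysosomal membrane protein, followed at 0.0971, then KDSR at 0.0999, NT5C2 at 0.105 and FAT1 at 0.105. SCARB2 had 428, 384 and 256 CPM on average in control, OIM and bFGF, and FAT1 had 2476, 2302 and 1506 CPM. None of the other 8 genes described here was near: the closest, BACE1, ranked 1019 of 13661 genes. Such distances largely follow the steps between the 3 groups and rest on 9 libraries.

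Other RNAs from these loci were read from the same table. At the APP locus, the long non-coding RNA LOC110256540 lies in the first intron, on the same strand, from 189709318 to 189715848, and begins 7 bases from the first exon. Its estimated level was 5.20 ± 0.199 CPM in control, 5.19 ± 0.625 in OIM and 5.07 ± 0.589 in bFGF (SD, n = 3), and the 3 groups overlapped. Next to BACE2, on the opposite strand, the 6 transcripts of LOC110256492 summed to 1.36 ± 0.154, 1.47 ± 0.0530 and 1.56 ± 0.0558 CPM in the same order (SD, n = 3). These values were not tested.

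Circular RNAs were matched by strand and by both ends within the gene. There were 12 in these genes: 8 in APP, 2 in BACE2 and 2 in ADAM17, and 10 of the 12 had both ends at annotated exon boundaries. They held 52 counts in all, 15 in control, 28 in OIM and 9 in bFGF libraries, and no circRNA had more than 6 counts in a library or was seen in more than 3 libraries. The one seen most widely joins exon 13 of APP back to exon 8 (189505179 to 189541330), with 7 counts in 3 libraries. Such counts are too few for a test between groups.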

How the data were processed

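Reads were trimmed (Cutadapt) and mapped with STAR to susScr11, according to the paper. The submitters' processing notes instead name Trimmomatic, HISAT2 and StringTie with Sscrofa11.1, and paper and labels also differ in library kit (poly-A selection or ribosomal RNA removal) and treatment time. The counting program and its strand setting are not given in the sources used here. The authors deposited 1 table without normalization, in which the 19535 gene rows and 6179 circRNA rows are whole-number counts. For 9888 non-coding transcripts the deposited values are estimated counts, of which 44.6% are not whole. A further 19 columns are empty and were not used.

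The test across genes used edgeR 4.0.16 under R 4.3.3 (filterByExpr, TMM, quasi-likelihood fit of 3 groups, 6 residual degrees of freedom), with Benjamini-Hochberg adjustment over 13662 genes. Calls were limited to adjusted p values up to 0.05 with a change of 0.5 or more on the log2 scale in either direction. The standard error (SE) is the fold change over the square root of F. The fit was tested on simulated data. Exon lengths and sequences came from RefSeq on Sscrofa11.1, and log2 CPM used a prior count of 2. The genes, lists and tests were chosen with earlier results of these data known. The rule named all 9 genes, the other gamma-secretase subunits, called list genes of at least 1 CPM with the 3 largest per list first, and the 5 genes nearest to APP. Replicates differed by more than sampling noise (mean chi-square per gene 4.77 to 20.1). The highest values were those of OIM replicate 2 against OIM replicates 1 (20.0) and 3 (20.1), which gave 6.01 against each other. Alternatives were DESeq2 1.42.0, other scalings, filters and groups in the fit, a replicate block, no fold limit, no division by exon length, and each library left out. Some genes of the lists count in the totals and are not reported by name here.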

Additional observations from a re-analysis of the deposited data

How the results depend on the processing

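The call of APP in bFGF against OIM depended on the scaling, and the calls of APLP1 on the filter, more than on single libraries. In bFGF against control APP stayed past the fold limit in every alternative (-0.76 to -0.51). In bFGF against OIM, library totals alone gave 1 gene higher (ADAM10) and 1 lower (APLP1), a filter of at least 10 CPM left 1 lower (APP) because APLP1 was then not tested, and dropping the fold limit left 3 genes lower (APP, APLP1, BACE1) with 2 higher (ADAM10, ADAM17). In the comparison of bFGF with control these gave 1 higher with totals, 1 lower with the filter, and 2 higher and 4 lower without a fold limit. In OIM against control no fold limit gave 1 lower. Without a fold limit 47, 48 and 18 pathway genes passed in bFGF against OIM, bFGF against control and OIM against control.

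With library totals alone the direction turned for APLP2 (0.20 and 0.11 in bFGF against OIM and control), PSEN2 (0.090 and 0.14) and SORL1 (0.067 in bFGF against control). With each library left out, members called lower stayed at 2 in both bFGF comparisons and at 0 in OIM against control, and members called higher at 0 in all. Pathway genes called ranged from 19 to 21, from 21 to 22 and from 3 to 6 in bFGF against OIM, bFGF against control and OIM against control, the 3 being without control replicate 1. Single libraries turned the sign of values near 0. In bFGF against OIM APLP2 ranged from -0.033 to 0.011 (turned without OIM replicate 2), and in bFGF against control SORL1 from -0.34 to 0.15 (turned without control replicate 2). In OIM against control BACE2 ranged from -0.039 to 0.0048, PSEN2 from -0.033 to 0.12 and ADAM10 from -0.039 to 0.0094. The cause was not tested.

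Libraries with the same replicate number did not deviate together (correlations from -0.032 to 0.0035, against -0.026 to 0.053 for different numbers). No pairing by number was seen, though such correlations cannot exclude it. A replicate block left 2 genes lower in both bFGF comparisons and changed no count of calls in any comparison (21, 21 and 5 pathway genes). Low counts limit SORL1 and the circRNAs.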
